A study of Homo sapiens with 3 samples.

Results

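ESR1 and SYNE1 are neighbouring genes on the long arm of chromosome 6, and the loops described here are those of the authors' deposited table with an end on either gene body. They are 2 of the 9909 protein-coding genes that had a listed loop end, and 170 of the 279618 listed loops had an end on them. The pair was chosen by the number of loops at it that carried the class word for a gain in that same table. The counts of gained loops are therefore a description of why the genes were chosen and carry no test. What the choice did not use is where within each gene the ends lie, which annotated gene starts they meet, how long the loops are and what the neighbouring genes show. The genes were taken as a pair, so that loops join them is not independent of the choice.

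The study asked which features of chromosome structure depend on ORC2, a subunit of the origin recognition complex that marks sites where DNA replication can start. Hi-C joins DNA sites that lie close to each other in fixed nuclei and counts the joined pairs, and 1 library was made for each of 3 groups of HCT116, a line from a human colorectal carcinoma. The first group was the parental HCT116 p53-/- line, called wild-type, and the second was ORC2B2, a clone of that line with an ORC2 deletion made by CRISPR/Cas9. The third was a selected clone of ORC2 rescue cells, in which pLHCXORC2, a vector carrying ORC2, put the gene back. All groups shared the p53-/- background, and each modified group was 1 clone, so a property of the clone and an effect of ORC2 cannot be told apart.

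Each loop is listed by its positions on the left and on the right, with a class word from the authors' own comparison. The words for conserved gain and conserved lost are shortened here to gained and lost, and the third word is not conserved. The table names no sample, so which cells had the gain is not known, and no direction with respect to ORC2 is drawn. Without replicate libraries or loop strengths there was no test between conditions, and depth is unknown. Shares are given with 95% Wilson intervals. These cover counting error only and assume independent loops, which neighbouring loops are not.

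ESR1 encodes oestrogen receptor alpha, a nuclear receptor that binds DNA when it binds oestrogen and switches target genes on or off. The gene has several alternative promoters spread over a long upstream part, and its activity has been studied most in breast and uterine tissue. SYNE1 encodes nesprin-1, a giant spectrin-repeat protein of the outer nuclear membrane. Nesprins bind SUN proteins in the inner membrane to form the LINC complex, which links the nucleus to the cytoskeleton. Chromatin loops bring distant sites of a chromosome together, and many of them are formed by cohesin and held where CTCF is bound.

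By RefSeq coordinates on GRCh38.p14, the same assembly as hg38, ESR1 spans chromosome 6 from 151656672 to 152129619 (473 kb) on the plus strand. SYNE1 spans 152121687 to 152637362 (516 kb) on the minus strand. The genes thus run towards each other, and their bodies overlap by 7.93 kb at their 3′ ends. The RefSeq promoter table held 6 starts for ESR1 and 4 for SYNE1. Below are the 30 bases before the outermost start of each gene and before the only start that lay in a gained loop end, with the last base before transcription begins in capitals. They are shown to fix the landmarks from which distances are given.

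ESR1 outermost start, chr6:151656642-151656671, plus strand: tttattttggtagattctaaggttccaagC
ESR1 start in a gained loop end, chr6:151690497-151690526, plus strand: tggtcataacagcctcctgtctaccgactC
SYNE1 outermost start, chr6:152637363-152637392, minus strand: agtggaaaccgtgggcaaaagttagctggC

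Nearly all loops of the authors' deposited table at these genes joined the 5′ part of ESR1 to the 3′ part of SYNE1. More of them were gained than in the table as a whole, which follows largely from the choice of the pair. ESR1 had 167 listed loops, of which 44 were gained, 26.3% (20.3 to 33.5%). SYNE1 had 164, of which 45 were gained, 27.4% (21.2 to 34.7%). Over all listed loops the gained share was 1.96%, and the lost share was 0.196%. No loop at either gene was lost. With 170 loops, a count of 0 is compatible with a lost share of up to 1.76%, so losses at the overall share were not detectable. The 2 genes share almost the same loops, so these are not separate results: 161 of the 170 loops counted at both genes, 6 at ESR1 alone and 3 at SYNE1 alone.

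All 44 gained loops at ESR1 had their left end on ESR1 and their right end on SYNE1 beyond the stretch where the bodies overlap. This arrangement was found for 143 loops of the authors' deposited table, and 44 of them, 30.8% (23.8 to 38.8%), were gained. Loops with a left and a right end on the ESR1 body were not gained. There were 6 with both ends on ESR1 alone and 18 whose right end lay where the bodies overlap, and all 24 were not conserved, which allows a gained share of up to 12.5%. The 45th gained loop at SYNE1 started before ESR1, at 151634104 to 151639103, which is 12.9 kb past the end of CCDC170 and 17.6 kb before the outermost ESR1 start. No protein-coding gene lay at that left end, and it was the only listed loop that started there. Its right end at 152316403 to 152321402 was shared with 1 gained loop from ESR1. The remaining 2 loops started inside SYNE1 at 152474490, ended past the gene, and were not conserved.

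**Figure D1:**
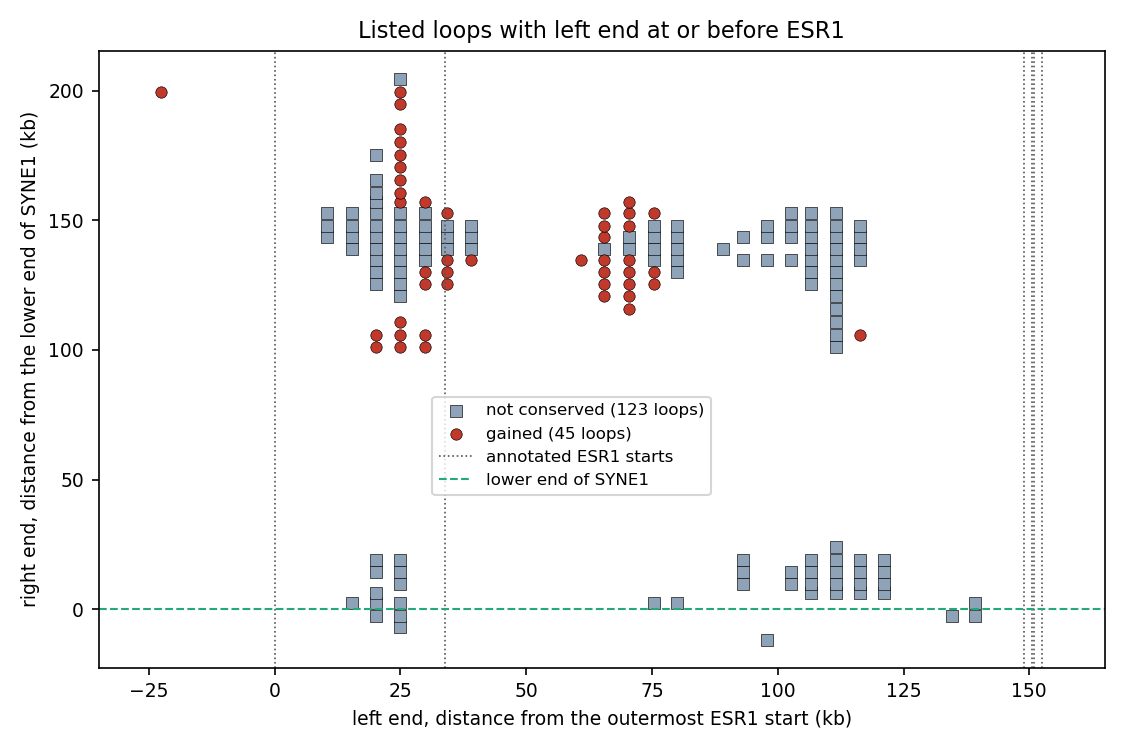
Each point is a listed loop with its left end at or before ESR1, placed by the distance of its left end from the outermost ESR1 start (x, kb) and of its right end from the lower end of SYNE1 (y, kb). The 45 gained loops (red circles) lie at right ends 101 to 199.7 kb into SYNE1 and left ends 20 to 116 kb into ESR1, apart from 1 before the gene, and none lies in the rows near 0 on the y axis, where right ends sit on or near the overlap of the genes.

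The gained left ends fell into 2 main stretches of the ESR1 upstream part. The first stretch, 151676715 to 151700610 in the authors' deposited table, began 20 kb inside the gene. It had 24 gained of 66 listed loops, 36.4% (25.8 to 48.4%). The second, 151717520 to 151737028, began 60.8 kb inside and had 19 gained of 27, 70.4% (51.5 to 84.1%). A further gained loop had its left end at 151772955 to 151777954. Between the second stretch and this end, 7 left ends from 151736619 to 151773213 had 50 listed loops and 0 gained, which allows a share of up to 6%. Left ends with many loops thus differed in class along ESR1. These stretches were drawn after the classes were seen, so the contrast is a description.

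The same loops, counted by single left ends, also differed in class within the first stretch. The left end with most loops, 151681491 to 151686490, had 12 gained of 27. The next one upstream, 151676715 to 151681714, had 2 gained of 18. In the second stretch, the ends at 151722163 and 151727151 had 7 gained of 8 and 8 gained of 10. At 151763267 and 151768214, in the part without gains, 0 of 11 and 0 of 17 were gained. Of 23 left ends on either gene, 10 had at least 1 gained loop and 13 had none.

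Of the 6 annotated ESR1 starts, 1 lay in a gained loop end. That start, at 151690527, is 33.9 kb inside the gene, and its 300 base promoter window met 10 listed loops in the authors' deposited table, of which 5 were gained. The outermost start had no listed loop end. The other 4 starts, at 151805705, 151807196, 151807682 and 151809107, lie together 149 to 152 kb inside the gene. None of them met a listed loop end, and the nearest gained end stopped 27.8 kb before the first of them. The last listed end of any class on this side, at 151795943 to 151800942, stopped 4.76 kb before it. Which starts met an end rests on the 5 kb width given to each end and was not recounted with other widths. The start at 151690527 lies between the listed positions 151686480 and 151690983 and holds neither listed base. An end read 10 kb inward from 151795943 would cover the start at 151805705. Whether any of these starts was in use in these cells was not tested, since the list holds no expression values.

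On SYNE1 the gained right ends covered 152217809 to 152321402, a span of 104 kb in the 3′ part of the gene. The span began 96.1 kb from the 3′ end of SYNE1 and stopped 316 kb short of its outermost start at 152637362. None of the 4 annotated SYNE1 starts met a listed loop end. The nearest of them to a gained end, at 152185411, lay 32.4 kb away. The exons of both genes were not used here, so whether ends lay in exons or introns was not determined.

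Within the span of gained right ends, loops that were not conserved were densest in the middle and the gained share differed along SYNE1. Right ends of the authors' deposited table at 152255790 to 152269660 had 47 listed loops, of which 3 were gained, 6.38% (2.19 to 17.2%). Right ends below this strip, from 152217809 to 152256492, had 26 gained of 52, 50.0% (36.9 to 63.1%). Right ends above it, from 152269393 to 152321402, had 16 gained of 28, 57.1% (39.1 to 73.5%). The strip was defined, after the classes were seen, as the right ends within that span whose gained share was below that of SYNE1 as a whole. The span itself begins and ends at a gained loop, so both the low share of the strip and the gains on both sides of it follow largely from the definitions and are a description. The right end at 152255790 to 152260789 had 0 gained of 14.

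Left ends differed in how their gained loops lay around the others. Of 9 left ends on ESR1 that had both classes with right ends in this part of SYNE1, 5 had gained loops ending both below and above the not conserved ones, and 3 had them only below. At 151722163 the only loop that was not conserved ended at 152260789, and of the 7 gained loops 4 ended below it and 3 above. At 151686480 the 5 loops that were not conserved ended between 152256492 and 152274392, with 4 gained loops ending below and 1 above. At the left end with most gained loops, 151681491, 3 of the 12 ended below the not conserved loops and 9 among them. Those 9 count as among only because of 1 not conserved loop that ended at 152326307. They ended at 152278904 to 152321402, above all other not conserved loops of that left end, the last of which ended at 152274392. Over the 9 left ends, 25 gained loops ended below the not conserved ones, 9 among them and 9 above. The 9 among them were all at 151681491, so the split between among and above rests on the loop that ended at 152326307.

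**Figure D2:**
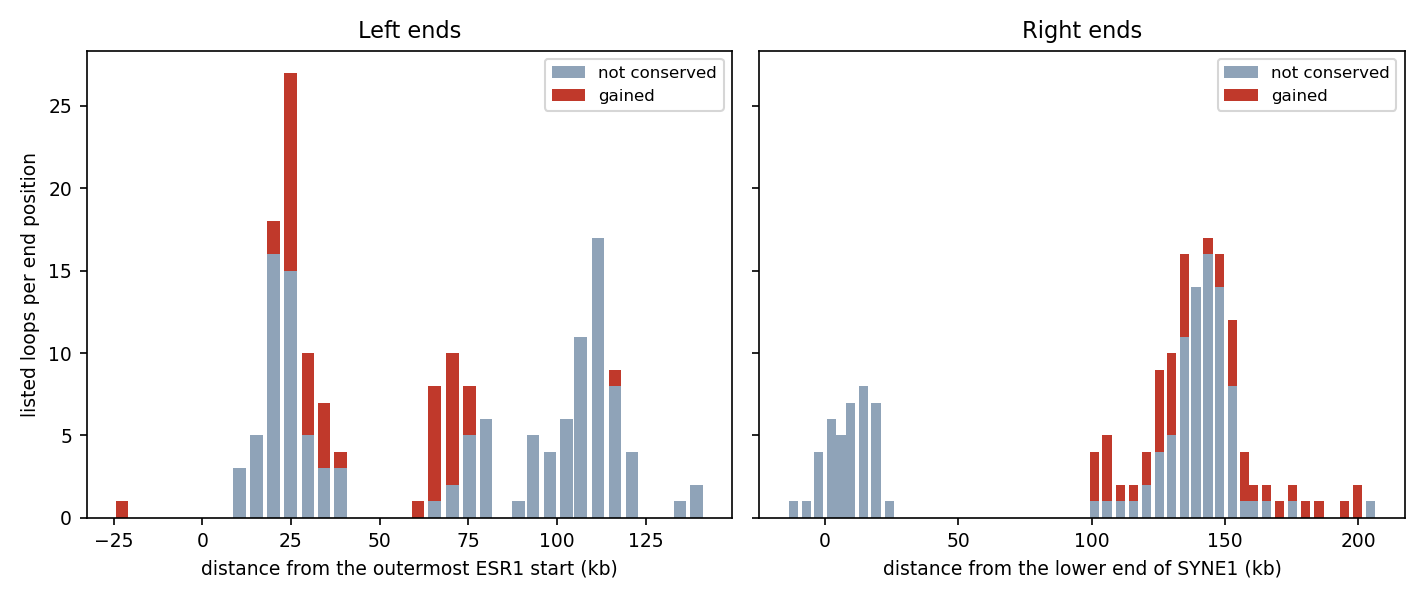
Bars count the listed loops, except the pair from inside SYNE1, at each left end (left panel, kb from the outermost ESR1 start) and each right end (right panel, kb from the lower end of SYNE1), with gained loops in red on top of not conserved loops in grey. The tallest left bar holds 27 loops, 12 of them gained, and the tall left bars at 107 and 112 kb hold none, while on the right the bar of 14 loops at 139 kb holds none and bars on both sides of it do.

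Right ends near the shared 3′ end of the genes formed separate groups without any gain. All 170 loops of the authors' deposited table, whatever their class, were joined to loops whose left and right ends were each at most 10 kb away, which gave 9 groups. The 2 largest held 65 and 62 loops and had 20 and 24 gained. The third and the fourth, with right ends from 152114843 to 152145802, held 22 and 12 loops and had none gained. Beside the gained share of 1.96% over all listed loops, a count of 0 in groups this small is a description only. The third group had left ends at 151749836 to 151777738, a part of ESR1 that also had loops to the distal part of SYNE1. The fourth had left ends at 151671945 to 151681491. The left end at 151681491 had both kinds, with loops to the shared 3′ end that were not conserved and gained loops that ended at 152222808 to 152321402.

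Pooled over left ends, gained loops had a higher median length than the other loops at the same genes, a difference that was not tested. Over all loops at these genes their range was also narrower. The 45 gained loops of the authors' deposited table had a median length of 547 kb, from 454 to 687 kb. The 125 loops that were not conserved had a median of 502 kb, from 182 to 645 kb. Among loops from ESR1 to SYNE1 alone the medians were 547 kb for 44 gained and 516 kb for 99 not conserved loops. Within the rectangle of left and right ends that holds those 44 gained loops, there were 119 loops and 75 were not conserved, with a median of 529 kb. These 75 ranged from 454.6 to 620 kb and the 44 gained loops from 454.5 to 640 kb. In the rectangle the gained range was thus not narrower. The ranges overlapped in each case. The order of the medians was reversed within each main stretch of left ends on ESR1, also without a test. In the first stretch the medians were 565 kb for 24 gained and 574 kb for 42 not conserved loops. In the second they were 529.5 kb for 19 gained and 533.5 kb for 8 not conserved loops. The left end at 151772955 went the other way, with 1 gained loop of 454.5 kb and a median of 426 kb for 8 not conserved loops. Except for the pair from inside SYNE1, of 182 and 186 kb, every loop at these genes was longer than the medians of the whole list, 299.6 kb for gained and 233 kb for not conserved loops.

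**Figure D3:**
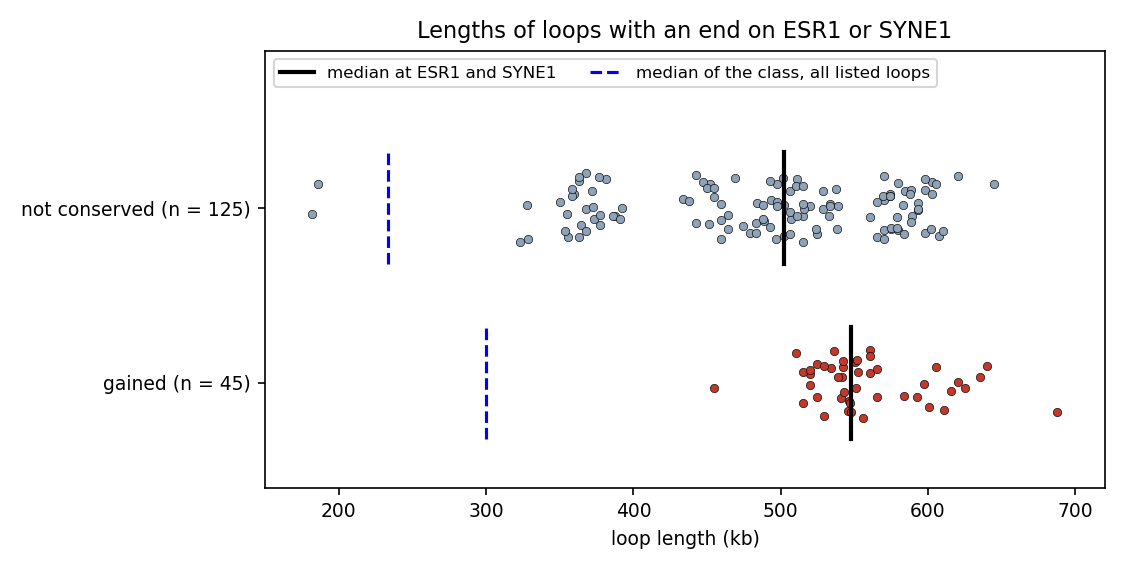
Each point is a listed loop with an end on ESR1 or SYNE1, placed by length (kb) and split by class, with vertical jitter only to separate points. Black bars mark the medians of 547 kb for 45 gained and 502 kb for 125 not conserved loops, and blue dashed bars mark the medians of the same classes over all listed loops, 299.6 and 233 kb, which lie to the left of nearly all points.

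The gained share at these genes was set beside that of loops of like length. Of all 33232 listed loops of 454 to 687 kb, the range of the gained loops here, 3.02% were gained. Without the loops of these genes the share was 2.89% (2.72 to 3.08%), against 45 of 132 loops of these lengths at either gene, 34.1% (26.6 to 42.5%). The range was set by those 45 loops, and the pair was chosen by its gained loops, both of which raise their share in it. Over loops of any length at either gene it was 26.5% (20.4 to 33.6%). On chromosome 6 as a whole 387 of 16251 loops, 2.38% (2.16 to 2.63%), were gained in the authors' deposited table. The 45 gained loops at ESR1 and SYNE1 are part of those 387.

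Within 1 Mb, gained loops lay at these genes alone. In the authors' deposited table, 502 loops had an end in the window from 1 Mb before ESR1 to 1 Mb past SYNE1, and the 45 gained loops among them were those with an end on ESR1 or SYNE1. The other 332 loops had 0 gained and 0 lost, which allows a share of up to 0.904%. Before ESR1, PLEKHG1 had 141 listed loops, MTHFD1L, a mitochondrial folate enzyme gene, had 104, and AKAP12, which encodes a scaffold for protein kinase A, had 103. None of these loops was gained. A loop counts at every gene that it meets, so these counts may share loops, and part of PLEKHG1 lies outside the window. In all, 245 loops had an end within 1 Mb before ESR1 and none on ESR1 or SYNE1. ZBTB2 had 1 listed loop, and LOC124901232, RMND1, DCPH1 and CCDC170, which lie between ZBTB2 and ESR1, had no listed loop end. Past SYNE1, MYCT1 had 37 loops, VIP, the gene of vasoactive intestinal peptide, had 20, RGS17, a regulator of G protein signalling, had 12, FBXO5, an inhibitor of the anaphase-promoting complex, had 1 and MTRF1L had none, and no loop at these genes was gained. No listed loop without an end on ESR1 or SYNE1 reached over any part of them.

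**Figure D4:**
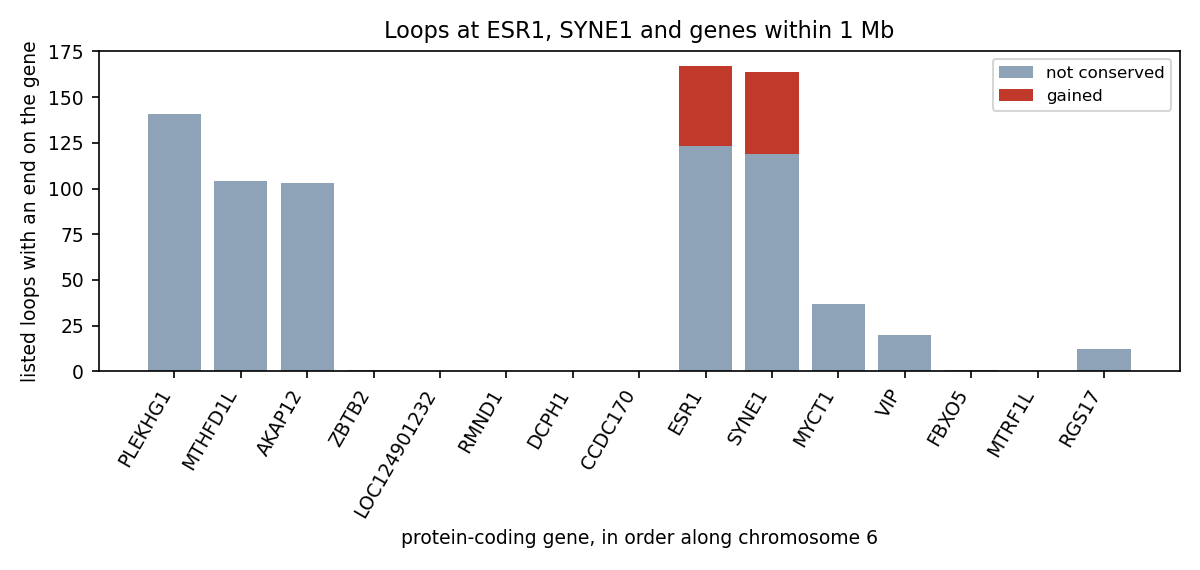
Bars count listed loops with an end on each protein-coding gene from 1 Mb before ESR1 to 1 Mb past SYNE1, in order along the chromosome, with gained loops in red. ESR1 has 44 gained of 167 and SYNE1 45 of 164, mostly the same loops, and every other gene has only not conserved loops or no loop.

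The share of other oestrogen receptor pathway genes with a gained loop was near that of all genes. Of 33 pathway genes other than ESR1, 23 had a loop end in the authors' deposited table, 4 of them a gained one and 0 a lost one. This is 17.4% of the 23, beside 12.7% of all 9909 protein-coding genes with a loop end, and 1.85% of those had a lost one. NCOA3, a coactivator of the receptor, had 10 gained of 75 loops, of 422 to 437 kb. GREB1, an oestrogen-induced gene, had 4 of 58. ESR2, which encodes oestrogen receptor beta, had 2 of 115. CYP19A1, the gene of aromatase, which makes oestrogen, had 1 of 44.

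The other nuclear receptor genes were near the background as well. Of 47 genes, 34 had a loop end, and 5 of these, 14.7%, had a gained one and 0 a lost one. Besides ESR2 these were RORA (3 of 114), NR2F6 (3 of 8), the thyroid hormone receptor gene THRB (1 of 26) and NR5A2 (1 of 5) in the authors' deposited table.

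Partners of nesprin-1 in the nuclear envelope likewise had a share near that of all genes. Of 24 genes of the LINC complex and nuclear envelope, 18 had a loop end, 3 of them a gained one (16.7%) and 1 a lost one. SUN1, an inner membrane partner of nesprins, had 3 gained of 36 loops, of 40.1 to 49.6 kb. TOR1AIP2, whose protein activates torsin, had 2 of 45, and TMEM201, an inner nuclear membrane protein gene, had 1 of 2. The lamin gene LMNB1 had 1 lost of 12. Of 19 genes of spectrin-repeat and plakin proteins, which resemble nesprin-1 in structure, 15 had a loop end, 2 a gained one (13.3%) and 1 a lost one in the authors' deposited table. The beta-spectrin gene SPTB and the alpha-actinin gene ACTN1 each had 1 gained of 61, and PLEC, the plectin gene, had 6 lost of 115. Shares this close to 12.7% are not a result about the lists.

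Among genes with a like number of loops, few had a gained share as high. The pair was chosen by its number of gained loops, so this follows largely from the choice and is a description. Outside the window, 824 genes of the authors' deposited table had 50 to 200% of the listed loops of ESR1, and 3 of them had a share at or above that of ESR1. The 5 genes nearest in share were the same for ESR1 and SYNE1. The haematopoietic transcription factor gene RUNX1 had 26 gained of 111 (23.4%) and 2 lost, and STXBP4 had 39 of 183 (21.3%). The epithelial transcription factor gene ELF5 had 18 of 94 (19.1%), ATL1, which shapes the endoplasmic reticulum, had 16 of 88 (18.2%), and APIP, a methionine salvage gene, had 31 of 171 (18.1%). All 18 gained loops of ELF5 also counted at APIP, so these are not separate. The Wilson intervals of all 5 overlapped that of ESR1, 20.3 to 33.5%, and no difference was tested. Gained loops were shorter at each of them, with medians of 222 kb at ATL1, 259 kb at RUNX1, 345 kb at STXBP4, 422 kb at ELF5 and 429 kb at APIP, against 547 kb at ESR1.

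**Figure D5:**
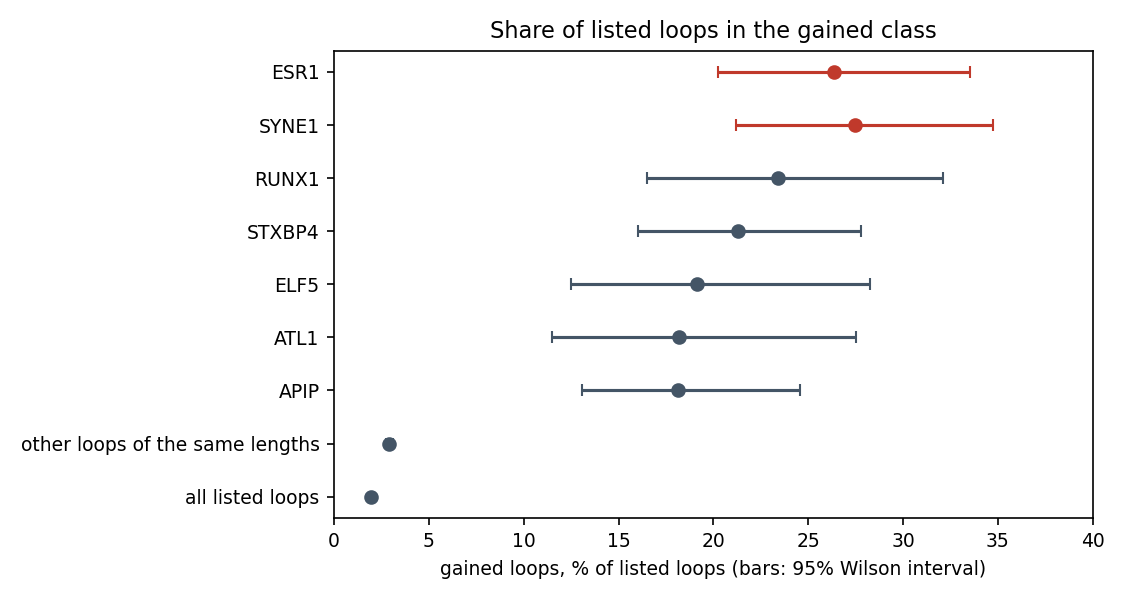
Points give the gained share of listed loops (%) at ESR1, SYNE1 and the 5 genes nearest to ESR1 in share, then for other loops of 454 to 687 kb and for all listed loops, with bars for 95% Wilson intervals that cover counting error only. ESR1 (26.3%) and SYNE1 (27.4%) lie highest among the 7 genes drawn, whose bars overlap, and the 3 genes with a share above that of ESR1 are not drawn. The pair was chosen by its number of gained loops, so its place is a description.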

How the data were processed

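Hi-C data came from 3 libraries, 1 per group. The authors' deposited list gives loop positions, in hg38 per its name, and class words. Bowtie, hg19 and hg38 are named, without roles, in the submitters' processing notes. The loop caller, contact normalisation and thresholds were not given in the sources used here. Of 279669 lines, 49 held no class word and 2 were repeats, leaving 279618 loops. In the compartment table, 6 columns of sample values match no sample label and were not used, so compartment scores over the genes are not given. Positions were counted from 1. Each end was taken to cover 5 kb towards the inside of the loop and was given to a gene whose RefSeq body it met. Loops of the same class were joined into regions where both ends lay within 10 kb. The groups of loops at these genes were joined in the same way whatever the class. Counting and joining were tested on simulated loops. The analysis used Python 3.11.15, pandas 2.3.3 and scipy 1.17.1. Where a count was 0, the limit is that of 3 counts.

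Genes named were ESR1 and SYNE1, genes at the other ends of their gained loops, protein-coding genes within 1 Mb, members of 4 gene lists with a gained or lost end, and for each gene the 5 genes with 50 to 200% of its loops and the nearest gained share. The members and lists were chosen with earlier results of these data known. Alternatives varied the width and direction of loop ends, the gene bodies, the coordinate start, short and shared loops, and joining.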

Additional observations from a re-analysis of the deposited data

How the results depend on the processing

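Of 48 alternative values, 37 stayed within 1.5 times a count, inside the Wilson interval of a share or inside the interval of a median. They include every value from ends read 10 kb inward, as the listed base alone or 5 kb outward, from gene bodies with 5 kb added on each side, from left positions counted from 0 and from leaving out loops under 100 kb, which removed no loop here. A shift of ends by 5 kb can move few loops on or off gene bodies of 473 and 516 kb, so little change could appear. The positions of ends, the starts they met, the stretches, the strips and the groups were not varied. The remaining 11 of the 48 values follow from what the alternative counts. Without loops that count at both genes, ESR1 had 0 gained loops (0% of 6) and SYNE1 had 1. Regions were joined within each class, so gained and not conserved loops of the same stretch count as different regions. Counted as regions joined at 10 kb, ESR1 had 5 gained (38.5% of 13) and SYNE1 6 (42.9% of 14). Joined at 20 kb, these were 3 (37.5% of 8) and 4 (40% of 10). These percentages are shares of such regions and not of separate places. The 45 gained loops thus stand for 4 to 6 regions within their class, which limits how far the shares can be read as independent counts. Joined at 10 kb whatever the class, they lay in groups that held 20, 24 and 1 of them. No paired analysis was possible because there is only 1 library per group. What depth limits is not known, since the list gives none.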

Other observations

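Gained loops at ESR1 and SYNE1 mostly lay beside a loop that was not conserved, as did gained loops of the whole list. Of the 45, 36 (80.0%) had such a loop with both ends within 10 kb, and the median distance, taken as the larger of the distances at the left and right ends, was 4.89 kb. Over all 5493 gained loops of the authors' deposited table, 75.1% had such a neighbour, with a median of 4.91 kb. Listed end positions at these genes lay 4.77 to 4.78 kb apart at the median, so this is about 1 listed position. The farthest of the 45 lay 42.6 kb from a loop that was not conserved.

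The 3 genes with a like number of loops and a gained share at or above that of ESR1 were named after their values were seen. They were ATP8A2 (176 of 272 loops), USP10 (70 of 134) and TMEM132E (126 of 328, with 25 lost). Of the 1337 regions of gained loops, the largest at ESR1 and SYNE1 held 19 loops from the second stretch of ESR1 and ranked 25th by number of loops. The long noncoding RNA gene LOC107986529, also named after its values were seen, lies inside ESR1 at 151743723 to 151766142 and met 27 listed loops and 0 gained ones.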
